A study of Mus musculus with 13 samples.

Results

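The genes described here are the syndecans and the enzymes that build and sulfate heparan sulfate, measured in EPLMs from the bone marrow of WT and BCS mice. The list holds 10 genes, namely Sdc1, Sdc2, Sdc3, Sdc4, Ext1, Ext2, Ndst1, Ndst2, Hs3st1 and Hs6st1, and every probe set that the platform annotation gives to 1 of these symbols alone was taken. Such probe sets were found for 9 of the 10 genes, 21 probe sets of the 45037 tested, and Ndst1 is not analysed here. The genes were put together with their values in these mice already known, so the difference between the genotypes is given for them as a description, with no p-value, and the calls of the fit over all probe sets are only counted and support nothing.

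EPLMs are early B cell precursors that keep lymphoid and myeloid potential, and they were sorted from bone marrow as B220+ c-kit+ CD93+ NK1.1- cells, among other markers of the gate. BCS mice carry a transgene in which a human OBF1 cDNA with a C-terminal HA tag stands under the mouse Eμ enhancer and a VH promoter, elements that are active from early B cell stages on and can also be active in T cells. OBF1, encoded in the mouse by Pou2af1, is a coactivator that acts with Oct1 and Oct2 at octamer sites. The controls were WT littermates without the transgene, and both genotypes were 7 weeks old and of the background B6CF1 x C57BL/6. In each genotype, 3 mice were used and the RNA of each mouse went to 1 Mouse 430v2 GeneChip. Several transgenic lines were made, and which of them gave these mice is not stated in the sources used here. The comparison asks what an early excess of OBF1 does to the transcripts of these precursors.

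Syndecans are transmembrane proteoglycans whose extracellular part carries heparan sulfate chains, through which they bind growth factors, chemokines and matrix. The chains are polymerized in the Golgi by the Ext1 and Ext2 complex and are then modified by N-deacetylase/N-sulfotransferases, an epimerase and 2-O-, 6-O- and 3-O-sulfotransferases, and the pattern of sulfation sets which proteins bind. Syndecan1, or CD138, is widely used to recognize plasma cells and is also found on precursor B cells.

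In BCS EPLMs all 4 syndecans and the 3-O-sulfotransferase gene Hs3st1 were lower than in WT EPLMs, and the polymerase gene Ext1 was higher. By the brightest probe set of each gene, the log2 difference between BCS and WT was -4.88 for Sdc1 (standard error, SE, 0.18), -2.20 for Sdc4 (0.24), -1.28 for Sdc3 (0.27), -0.95 for Sdc2 (0.22), -2.22 for Hs3st1 (0.26) and 1.71 for Ext1 (0.17). Ext2, Ndst2 and Hs6st1 had smaller differences of -0.33, -0.16 and 0.27. Log2 differences are those of the GCRMA intensity plus 1, averaged over the 3 mice of a genotype, and understate the difference of dim probe sets. In bulk RNA, fewer cells of a type and less RNA per cell cannot be told apart.

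Of the 21 probe sets, 8 were called lower and 1 was called higher by limma (adjusted p under 0.05), in the fit over all 45037 probe sets. Across all probe sets, 5.49% were called, 3.25% lower and 2.24% higher in BCS EPLMs, and since the genes were chosen on this contrast nothing is read from their count beside these shares. The values of WT and BCS mice did not overlap in 14 of the 21 probe sets, against 23.9% of all probe sets. The median log2 difference was -0.32 over the 21 probe sets and -0.95 over the 9 genes, beside 0.01 over all probe sets. Among the probe sets of the 9 genes, 10 lay above the array median of 20 on all 6 arrays and 8 lay below it on all 6, where a value carries little signal over background.

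The promoters of the 3 genes with the most negative differences are printed because OBF1 acts through octamer motifs and E proteins, which work beside it in early B cells, through E-boxes. Each is the sequence of the 250 bases before the transcription start, on the gene's strand, from RefSeq on build GRCm38.p6. Capitals mark each GC box (GGGCGG on either strand) and each TATAA (either strand, and overlapping matches are joined). The windows are chr12:8771146-8771395 on the plus strand for Sdc1, chr2:164443189-164443438 on the minus strand for Sdc4 and chr5:39644632-39644881 on the minus strand for Hs3st1.
Sdc1: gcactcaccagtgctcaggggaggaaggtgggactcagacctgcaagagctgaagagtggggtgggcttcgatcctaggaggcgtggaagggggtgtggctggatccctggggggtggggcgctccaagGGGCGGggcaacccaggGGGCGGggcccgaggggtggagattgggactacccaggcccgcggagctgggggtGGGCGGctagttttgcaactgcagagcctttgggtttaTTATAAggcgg
Sdc4: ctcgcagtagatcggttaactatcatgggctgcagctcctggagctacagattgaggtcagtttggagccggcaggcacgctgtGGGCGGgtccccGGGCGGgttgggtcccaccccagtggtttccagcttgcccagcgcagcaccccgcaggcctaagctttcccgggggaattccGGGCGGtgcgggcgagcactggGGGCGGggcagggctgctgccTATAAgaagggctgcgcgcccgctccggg
Hs3st1: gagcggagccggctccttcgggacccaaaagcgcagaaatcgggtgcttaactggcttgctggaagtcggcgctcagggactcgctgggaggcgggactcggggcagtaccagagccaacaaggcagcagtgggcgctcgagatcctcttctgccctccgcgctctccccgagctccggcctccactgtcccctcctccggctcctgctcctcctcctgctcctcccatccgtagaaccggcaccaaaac

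The octamer ATGCAAAT and the E-box CAGGTG, searched on both strands, were not found in these windows, nor in those of Sdc3, Ext2, Ndst2 and Hs6st1. Other E-box sequences were not searched for. Over all 32851 RefSeq promoter windows of this length, 1.6% hold the octamer and 17.2% hold CAGGTG, and the absence says only that these letters are not in these bases. GC boxes, which 32.7% of all windows hold, were counted 3 times for Sdc1, 4 times for Sdc4, 3 times each for Sdc3 and Ndst2 and 6 times for Hs6st1, and 0 times for Hs3st1 and Ext2. TATAA, held by 22.8% of all windows, was found in Sdc4 from 29 to 25 bases before the start, in Sdc1 from 10 to 6 bases before it and in Ext2 farther upstream. Sdc1 and Sdc4 thus share GC boxes and a TATAA, Hs3st1 has neither, and genes with little difference between the genotypes also hold GC boxes. No window was at hand for Sdc2 and Ext1.

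Sdc1 had the largest difference of the genes listed. Its brightest probe set read 7043, 5118 and 8059 in WT mice 1 to 3 and 248, 227 and 200 in BCS mice 1 to 3. Every WT mouse was thus far above every BCS mouse, and the WT mean of 6740 ± 1494 stood against a BCS mean of 225.2 ± 24.3 (SD, n = 3 each), a 29.4-fold difference on the log2 scale of intensity plus 1. This probe set is of the kind (suffix x_at) whose oligonucleotides may also match other transcripts.

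The Sdc1 difference did not depend on that probe set. A second one read 2486, 1562 and 2687 in WT and 33.3, 33.7 and 29.7 in BCS mice, a log2 difference of -6.04 (SE 0.22). Another read 843, 562 and 933 in WT and 19.7, 18.5 and 17.7 in BCS mice, a log2 difference of -5.28 (SE 0.22), and lay below the array median in all 3 BCS mice. The dimmest was below the array median on all arrays, between 14.4 and 19.95 in WT and between 12.6 and 14.3 in BCS mice, and had a log2 difference of -0.32. In the order of 18193 genes by the log2 difference of the brightest probe set, Sdc1 stood at position 5 from the lowest.

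Sdc4, the syndecan of focal adhesions, was measured by a bright and a dimmer probe set. The bright one read 2591, 1730 and 1223 in WT and 375, 362 and 413 in BCS mice, with a mean of 1848 ± 692 against 383.4 ± 26.5 (SD, n = 3 each), a 4.6-fold difference. The WT mice were spread more widely than the BCS mice, with log2 SDs of 0.54 and 0.10, and the groups stayed apart. The dimmer probe set read 424, 553 and 192.0 in WT and 166, 97.1 and 189.6 in BCS mice, so that the lowest WT mouse was only just above the highest BCS mouse, and its log2 difference was -1.29 (SE 0.39).

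Sdc3, best known from the nervous system, read 78.0, 67.4 and 103 in WT and 40.4, 22.4 and 39.8 in BCS mice on its brightest probe set, with log2 SDs of 0.31 and 0.47. The means were 82.9 ± 18.5 for WT and 34.2 ± 10.3 for BCS EPLMs (SD, n = 3 each), and no BCS mouse reached a WT mouse. The other Sdc3 probe sets were below the array median on all arrays, with log2 differences of 0.05 and -0.18.

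Sdc2, a syndecan of mesenchymal cells, was near the array median throughout. Its brightest probe set read 22.7, 30.9 and 43.7 in WT and 16.9, 14.5 and 15.99 in BCS mice, and its second read 17.6, 19.0 and 23.0 in WT and 8.9, 8.1 and 8.1 in BCS mice, with log2 differences of -0.95 and -1.15. The brightest lay above the array median in all WT mice and in no BCS mouse, and the second lay above it in WT mouse 3 alone. The remaining 2 Sdc2 probe sets, below the array median on all arrays, had differences of -0.03 and 0.02. The collagen gene Col1a2, a marker of bone marrow stroma, read 17.4, 16.9 and 571 in WT mice 1 to 3 and between 14.6 and 45.3 in BCS mice, and WT mouse 3 was also the highest in Sdc2. The other stromal markers differed in this. Among WT mice, Col1a1, Sparc and Cdh5 were highest in mouse 3, while Col3a1, Lepr, Pecam1 and Cxcl12 were not. Without WT mouse 3 the Sdc2 difference was -0.71 (SE 0.17). The part of stromal RNA in the Sdc2 values was not tested.

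**Figure D1:**
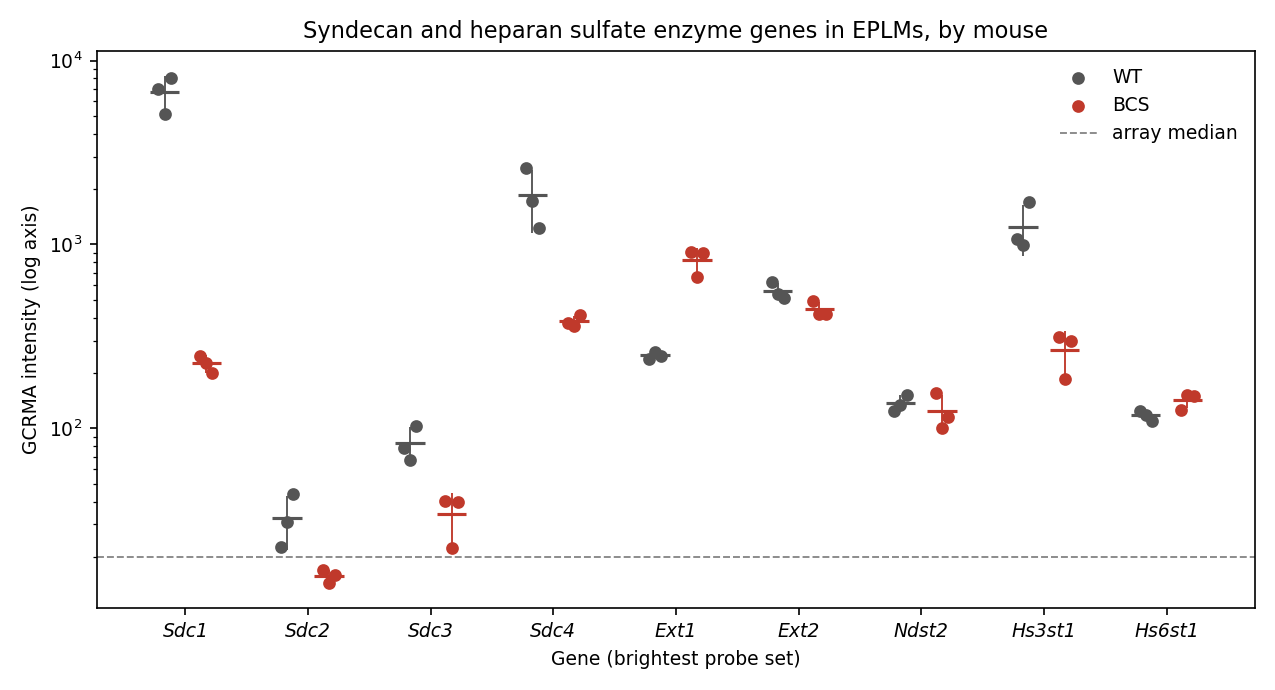
GCRMA intensity on a log axis of the brightest probe set of each measured syndecan and heparan sulfate enzyme gene, 1 point per mouse, in WT (grey, n = 3) and BCS (red, n = 3) EPLMs. Horizontal bars are means, vertical lines are 1 SD and the dashed line is the array median of 20. The points of the genotypes lie farthest apart in Sdc1, where WT mice read 5118 to 8059 and BCS mice 200 to 248, and Ext1 is the gene in which BCS mice lie clearly above WT mice.

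Of the enzymes, those of chain polymerization come first. Ext1, a catalytic partner in the polymerase complex, read 238, 261 and 248 in WT and 908, 669 and 894 in BCS mice, with a mean of 249.1 ± 11.7 (SD, n = 3) against 824 ± 134 (SD, n = 3), a 3.27-fold higher value in BCS EPLMs. The WT mice were close together, with a log2 SD of 0.07, and the lowest BCS mouse, at 669, was far above the highest WT mouse, at 261. The other Ext1 probe set was below the array median on all arrays and had a log2 difference of 0.17. Ext2, which forms the complex with Ext1, read 623, 540 and 512 in WT and 493, 417 and 420 in BCS mice. The Ext2 groups did not overlap, but the lowest WT and the highest BCS mouse were close, and the log2 difference was -0.33 (SE 0.15). The other 2 Ext2 probe sets, below the array median, had differences of -0.29 and -0.10.

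Among the sulfotransferases, Hs3st1, which adds the 3-O-sulfate that antithrombin recognizes, read 1068, 988 and 1695 in WT and 314, 185 and 300 in BCS mice. The means were 1250 ± 387 for WT and 266.0 ± 70.6 for BCS EPLMs (SD, n = 3 each), 4.67-fold lower in BCS EPLMs, and the spread among mice was alike in both genotypes (log2 SD 0.42 in each). Ndst2, an N-deacetylase/N-sulfotransferase needed for heparin in mast cells, read 124, 133 and 152 in WT and 156, 100.02 and 115 in BCS mice, and the groups overlapped. Hs6st1, a 6-O-sulfotransferase, read 124, 119 and 110 in WT and 127, 152 and 150 in BCS mice, a log2 difference of 0.27 (SE 0.17). Its groups lay side by side without overlap.

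The mice did not keep 1 order across these genes. WT mouse 3 was the highest WT mouse in Sdc1, Sdc2, Sdc3, Ndst2 and Hs3st1 and the lowest in Sdc4, Ext2 and Hs6st1. BCS mouse 2 was the lowest BCS mouse in Sdc2, Sdc3, Sdc4, Ext1, Ext2, Ndst2 and Hs3st1, but not in Sdc1 or Hs6st1. Leaving out each mouse in turn kept the direction of all 9 genes, and the log2 difference ranged from -5.06 to -4.74 for Sdc1, from -2.46 to -1.92 for Sdc4, from -2.37 to -1.98 for Hs3st1 and from 1.63 to 1.85 for Ext1. Ndst2 came closest to no difference, with a range from -0.34 to -0.02.

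**Figure D2:**
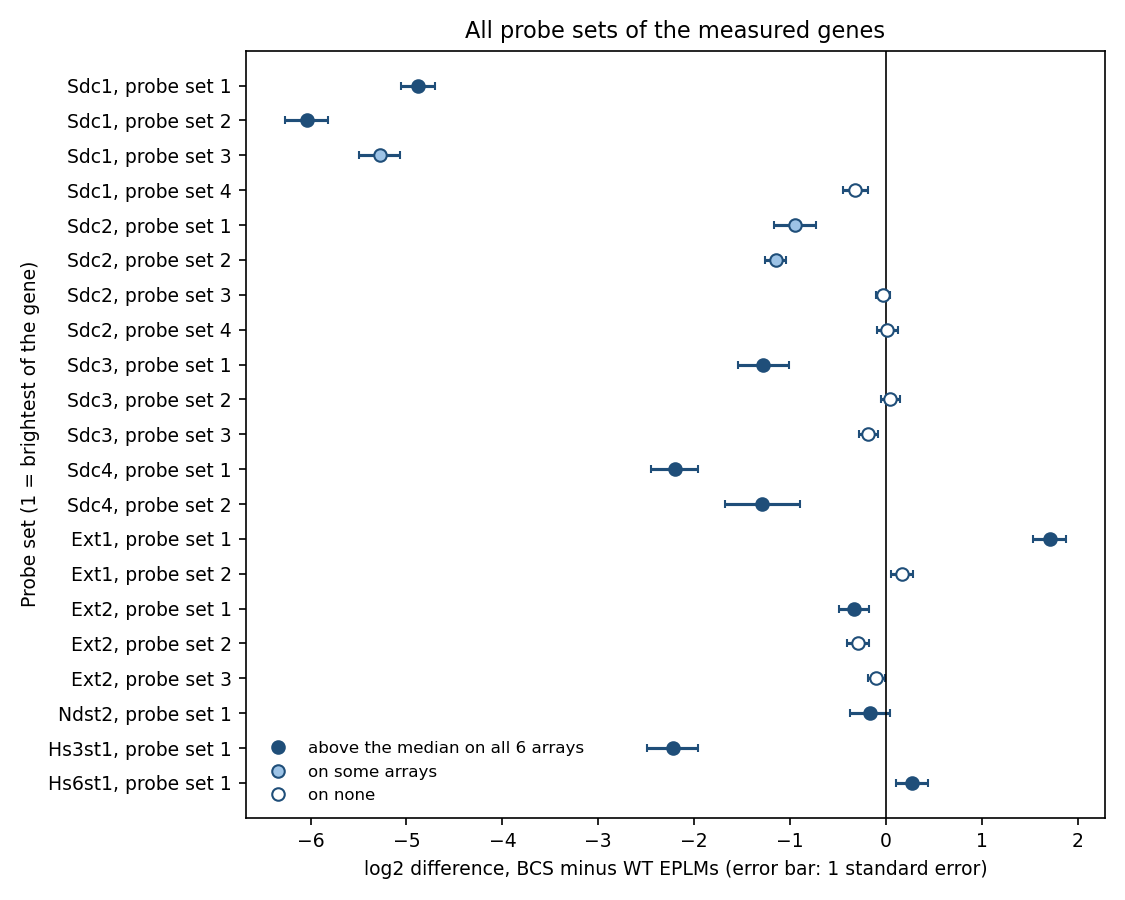
Log2 difference between BCS and WT EPLMs of all 21 probe sets of the 9 measured genes, ordered by gene and by brightness within the gene, with bars of 1 standard error. Filled points lie above the array median on all 6 arrays, light points on some and open points on none. The open points lie close to 0, and the Sdc1 probe sets 1 to 3 lie between -6.04 and -4.88.

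The rest of the heparan sulfate pathway was read from lists that do not include the genes above, with the adjusted p of limma over all 45037 probe sets. Of 35 measured genes that link, extend, sulfate, supply or break down the chain, 3 fell and 0 rose in BCS EPLMs, and the median log2 difference was -0.15, beside 0.01 over the brightest probe sets of all 18193 genes, of which 4.7% fell and 3.15% rose. Of the 35 genes, 11 were below the array median on all arrays. The other 32 of the 35 genes were not called by their brightest probe set, though dimmer probe sets of Sulf2 and Hs2st1 were.

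The enzymes that modify or cut the finished chain held 2 of these 3 genes. Hpse, heparanase, which cleaves heparan sulfate and releases what is bound to it, read 1423, 1883 and 1918 in WT and 294, 214 and 205 in BCS mice. It fell by 2.87 on the log2 scale (SE 0.19, limma adjusted p = 8.39e-05), with all BCS mice below all WT mice. Ids, the lysosomal iduronate-2-sulfatase, fell by 0.57 (SE 0.11, limma adjusted p = 0.0188), from 2274 ± 145 to 1532 ± 116 (SD, n = 3 each). Of its 6 probe sets, 1 was called. The Ids call did not hold when the fit took replicate numbers as a block (limma adjusted p = 0.0502), nor in 3 of the 6 fits that left out a mouse, without WT mouse 2, WT mouse 3 or BCS mouse 2, with limma adjusted p of up to 0.0817. The other 8 of 10 measured genes of this group did not pass by their brightest probe set, and its median log2 difference was -0.39.

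The count for this group rests on the probe set chosen for Sulf2, a sulfatase that removes 6-O-sulfates from finished chains, which was named after its values were seen. Its brightest probe set read 4322, 4520 and 6246 in WT and 4673, 3898 and 3501 in BCS mice, with overlapping groups and a log2 difference of -0.31 (SE 0.16, limma adjusted p = 0.341). A dimmer one read 67.6, 257 and 42.8 in WT and 738, 682 and 755 in BCS mice and rose by 2.98 (SE 0.54, limma adjusted p = 0.0136). This dimmer one has the suffix x_at, so its oligonucleotides may also match other transcripts. The dimmest read 22.9, 38.8 and 18.1 in WT and 67.8, 73.7 and 95.9 in BCS mice and rose by 1.59 (SE 0.28, limma adjusted p = 0.0115). The Sulf2 probe sets therefore disagree, and by the probe set of largest spread 1 gene of this group rose.

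Among the sulfotransferases outside the list, Hs3st3b1, like Hs3st1 a 3-O-sulfotransferase, read 151, 144 and 232 in WT and 48.8, 36.0 and 44.3 in BCS mice. It fell by 1.98 on the log2 scale (SE 0.23, limma adjusted p = 0.00147), and of its 4 probe sets only the brightest was called. The other 10 measured genes of the group did not pass by their brightest probe set, and 8 of them were below the array median on all arrays. The 2 expressed ones were chosen after their values were seen. These were the epimerase gene Glce, with 1258, 1308 and 1384 in WT and 1040, 926 and 955 in BCS mice (limma adjusted p = 0.0742), and the 2-O-sulfotransferase gene Hs2st1, with a log2 difference of -0.18 (limma adjusted p = 0.439). A dimmer Hs2st1 probe set fell by 0.91 (SE 0.19, limma adjusted p = 0.026), from 104 to 117 in WT to 51.0 to 71.8 in BCS mice, and its other 2 did not pass. The 3-O-sulfotransferases with a level above the array median, Hs3st1 and Hs3st3b1, were thus both lower in BCS EPLMs, and the former was among the genes chosen for its value.

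No gene passed among those that start the chain, the other polymerases or those that supply sugar and sulfate donors. Of the 5 measured linker genes, the brightest were B3galt6, a galactosyltransferase, and Fam20b, a xylose kinase, with log2 differences of 0.39 (SE 0.14, limma adjusted p = 0.157) and -0.21 (0.18, limma adjusted p = 0.621). Of the 3 Extl genes, Extl2 and Extl3 had differences of -0.10 (0.20, limma adjusted p = 0.866) and -0.36 (0.18, limma adjusted p = 0.335). Of the 6 precursor genes, the transporter gene Slc35b3 and the UDP-xylose synthase gene Uxs1 had differences of -0.16 (0.12, limma adjusted p = 0.529) and 0.03 (0.17, limma adjusted p = 0.961). The median differences of these groups were -0.06, -0.10 and -0.04.

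Chondroitin sulfate is the other chain built on the same linker, and its enzymes moved in both directions. Of 13 measured genes, 2 rose and 3 fell, and the median log2 difference was -0.04. Chst11 and Chst15, which sulfate the galactosamine of the chain, fell by 1.05 (SE 0.18, limma adjusted p = 0.00962) and by 0.79 (0.14, limma adjusted p = 0.0115). Chsy1, a synthase that extends the chain, named after its value was seen, rose from 8312, 9456 and 9160 in WT to 12273, 12106 and 11385 in BCS mice, a log2 difference of 0.41 (SE 0.07, limma adjusted p = 0.00881). Both genes that add the first galactosamine passed in opposite directions. Csgalnact1 read 31.0, 143 and 33.9 in WT and 246, 220 and 242 in BCS mice, so that WT mouse 2 stood apart from the other WT mice, and rose by 2.12 (SE 0.50, limma adjusted p = 0.0438). Csgalnact2 fell by 0.50 (SE 0.12, limma adjusted p = 0.0478). Both calls were close to the threshold. Without WT mouse 2 the Csgalnact1 difference was 2.82. Csgalnact1 was called only without WT mouse 2 among the fits that left out a mouse, and Csgalnact2 only without WT mouse 1, with limma adjusted p of up to 0.143 and 0.168 in the others. With all mice, the called probe sets were 2 of 2 for Csgalnact1 and Chst15, 1 of 2 for Chst11 and 1 of 1 for Csgalnact2.

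Of 17 other proteoglycan cores, 1 rose and 2 fell, with a median log2 difference of -0.01, and 8 were below the array median on all arrays. Nrp1, a co-receptor of semaphorins and VEGF that can carry a glycosaminoglycan chain, read 4593, 4828 and 5566 in WT and 1780, 1131 and 1661 in BCS mice, and 3 of its 4 probe sets fell (log2 difference -1.73, SE 0.17, limma adjusted p = 0.000583 for the brightest). Cd44, the hyaluronan receptor, fell from 10408 ± 487 to 6755 ± 121 (SD, n = 3 each; log2 difference -0.62, limma adjusted p = 0.000665). Of its 4 probe sets, 2 were called lower. Its probe set of largest spread was not called (log2 difference -0.69, SE 0.17, limma adjusted p = 0.0531). Tgfbr3, betaglycan, a TGF-beta co-receptor with heparan and chondroitin sulfate chains, read 185, 370 and 231.5 in WT and 904, 672 and 479 in BCS mice and rose by 1.40 (SE 0.30, limma adjusted p = 0.0291). The Tgfbr3 call was lost in 4 fits, without WT mouse 1 or 3 or BCS mouse 1 or 2, with limma adjusted p of up to 0.0996. Srgn, the core of intracellular granules, had a log2 difference of -0.13 (SE 0.06, limma adjusted p = 0.285), and it was named after its value was seen.

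Of 14 genes listed as syndecan partners and sheddases, with the metalloproteinase inhibitor gene Timp3 among them, 1 rose and 1 fell. Cask, a scaffold that binds the C-terminus of syndecans, read 210, 125 and 177 in WT and 84.4, 53.5 and 67.4 in BCS mice and fell by 1.30 (SE 0.25, limma adjusted p = 0.0179). Of its 4 probe sets, 1 was called. Ezr, ezrin, which ties membrane proteins to actin, rose from 5749 ± 388 to 7969 ± 423 (SD, n = 3 each; log2 difference 0.47, limma adjusted p = 0.00902). The Cask call was lost without WT mouse 1 or 3 or BCS mouse 2 or 3, with limma adjusted p of up to 0.0728. Sdcbp, syntenin, which binds the syndecan tail, was named after its values were seen. Its brightest probe set did not pass (log2 difference -0.17, limma adjusted p = 0.151) and its next one fell by 0.40 (limma adjusted p = 0.0304). The sheddase genes Adam10 and Adam17, named after their values were seen, had differences of -0.17 and -0.13 and did not pass (limma adjusted p = 0.229 and 0.628).

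Of 20 measured genes for ligands that bind heparan sulfate and for the receptors of such ligands, 1 fell and 0 rose. Over all genes, 4.7% fell and 3.15% rose. Met, the receptor of hepatocyte growth factor, a ligand that heparan sulfate holds, read 230, 148 and 162 in WT and 19.8, 16.1 and 17.6 in BCS mice, where it lay below the array median. It fell by 3.24 on the log2 scale (SE 0.21, limma adjusted p = 7.66e-05), by 1 of 2 probe sets. Its ligand Hgf, named after its value was seen, was near background in both genotypes, between 13.9 and 18.0 in WT and between 17.4 and 25.2 in BCS mice.

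Since Sdc1 marks plasma cells, 8 plasma cell genes were read beside it, of which 2 rose and 1 fell. Xbp1 and Mzb1, genes of the secretory program, rose by 0.37 (SE 0.08, limma adjusted p = 0.0237) and by 0.80 (0.11, limma adjusted p = 0.00285). Irf4, a transcription factor of plasma cells and of other lymphoid and dendritic cells, read 1332, 1531 and 588 in WT and 280, 425 and 290 in BCS mice and fell by 1.70 (SE 0.34, limma adjusted p = 0.0217). The Xbp1 call was lost in 4 fits that left out a mouse (WT mouse 1, 2 or 3 or BCS mouse 2), and the Irf4 call in 4 (WT mouse 1 or 2 or BCS mouse 1 or 3), with limma adjusted p of up to 0.0852 and 0.0813. With all mice, 3 of 4 Xbp1 probe sets were called higher and 1 of 2 Irf4 probe sets lower. Prdm1, which encodes the plasma cell regulator Blimp1, was near background in both genotypes, from 12.6 to 20.1 in WT and from 11.8 to 19.7 in BCS mice, and was named after its values were seen. The median log2 difference of the 8 genes was 0.02.

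**Figure D3:**
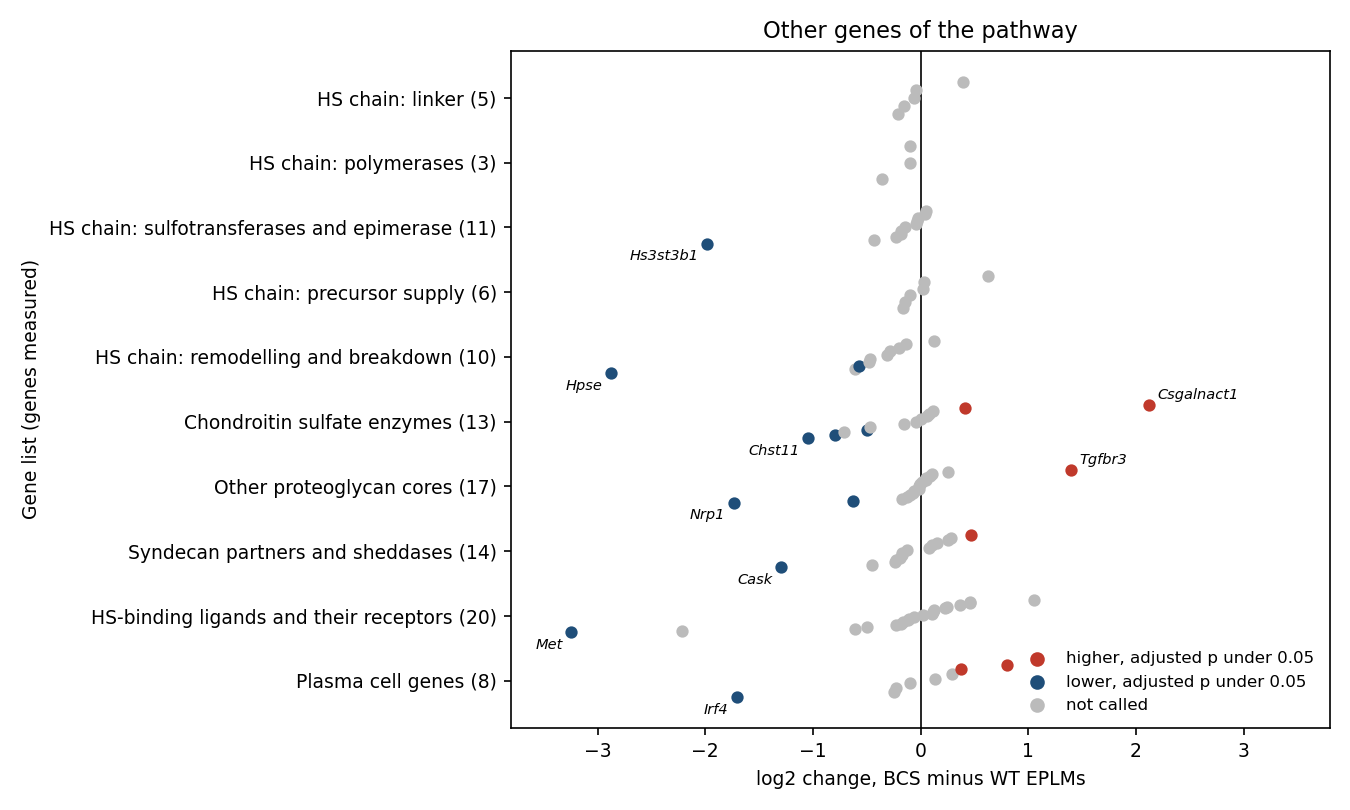
Log2 change between BCS and WT EPLMs of each measured gene of the 10 pathway lists, by its brightest probe set, with the number of genes measured in parentheses. Red points rose and blue points fell (limma adjusted p under 0.05), and grey points were not called. Most genes of each list lie close to 0, and Met (-3.24) and Hpse (-2.87) lie farthest to the left among the genes that fell.

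The probe sets whose values over the 6 arrays most resembled those of Sdc1 were found by Pearson's r with the brightest Sdc1 probe set, among 2587 probe sets with 1 symbol, a mean at or above the array median and a log2 SD of at least 0.5. The highest were in Tns1, a focal adhesion protein (r = 0.9992), Plekhh1 (r = 0.999), Pkib, an inhibitor of protein kinase A (r = 0.9981), Rassf4 (r = 0.998) and Ldhb, a lactate dehydrogenase subunit (r = 0.9973). Their log2 differences were -2.41, -4.93, -2.29, -1.38 and -4.36. The 6 points of each correlation are the same arrays and fall into the 2 genotypes, and 396 of the 2587 probe sets had r over 0.95, so the order among them is a description only.

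The cell types that could lie in the gate were read from marker lists in the same fit. Of the gate's own genes, Kit and Cd93 had log2 differences of -0.01 and 0.29 and were not called (limma adjusted p = 0.983 and 0.322), and Ptprc, which encodes B220, fell by 0.40 (limma adjusted p = 0.0101). Of 10 plasmacytoid dendritic cell markers, a cell type that shares B220 and much of the early lymphoid program, 7 fell and 0 rose, and their summed intensity was 90400 to 101000 in WT and 42500 to 56500 in BCS mice. In WT mice the brightest of them were Irf8, Tcf4 and Ccr9, with means of 39471, 15744 and 15473. Their means in BCS mice were 26143, 9490 and 1634. Ly6d, Tlr7 and Tlr9 were not called. Of 7 NK cell markers, 2 fell, with sums of 7980 to 13600 in WT and 1340 to 3740 in BCS mice. Most of that separation was Klrd1, at 6901 to 8110 in WT and 1087 to 2430 in BCS mice, and Ncr1, Gzma, Prf1, Il2rb and Eomes overlapped between the genotypes and were not called. Of 7 committed B lineage markers, 5 rose, with sums of 42400 to 65700 in WT and 88500 to 99200 in BCS mice. Igll1, Vpreb1 and Rag1 were bright in both genotypes, with means of 11881, 11205 and 12873 in WT mice. Their means in BCS mice were 30327, 20749 and 20453. Cd79b rose from a mean of 4058 to 9276 and Pax5 from 38.8 to 85.2, while Cd79a and Blnk were not called. The called markers of these lists differed between the genotypes, as did Sdc1, Sdc4, Hs3st1, Hpse and Ext1. The part of these cell types in those differences was not tested. Of the remaining lists, 1 of 7 granulocyte and monocyte markers fell (sums of 22500 to 71200 and 7900 to 47900), 1 of 5 T cell markers fell (180 to 460 and 103 to 147), 0 of 6 erythroid and megakaryocyte markers passed (201 to 3150 and 172 to 193) and 1 of 8 stromal markers fell (389 to 1060 and 207 to 316). Of these markers, Hba-a1, Col3a1 and Lepr were below the array median on all arrays.

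Pou2af1 itself had a mean intensity of 5643 in WT and 10655 in BCS EPLMs and a log2 difference of 0.99 (SE 0.23, limma adjusted p = 0.0436). The study reports that its qPCR did not detect endogenous OBF1 RNA in WT EPLMs. By qPCR it also reports clearly raised endogenous OBF1 in BCS EPLMs, the same direction as Pou2af1 here. On these arrays Pou2af1 read 6278, 7250 and 3401 in WT mice 1 to 3. The cause of the disagreement on WT EPLMs was not tested. The human cDNA is what the transgene holds, so this mouse probe set does not check the labels. The arrays correlated with r from 0.993 to 0.9947 within a genotype and from 0.9845 to 0.988 between genotypes, across probe sets, which are not independent replicates. The large preB arrays of the study, 3 WT and 4 BCS mice, were not used, because intensity and probe set name do not go together there. Over the same probe sets their mean levels correlated with those of the EPLM arrays with r = 0.0944, against r = 0.978 across 64 control features.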

How the data were processed

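Each of the 6 arrays holds the EPLM RNA of 1 mouse. The labels state a labeling protocol of 1 cycle and the study's methods state 2 cycles. The authors normalized the arrays with GCRMA (version not given) and deposited intensity values on a linear scale. All 6 columns hold the same distribution, so a shift of all genes together could not be seen. Precision is limited by the number of arrays.

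The log2 of deposited intensity plus 1 was compared in limma 3.58.1 under R 4.3.3 by lmFit and eBayes, with a trend on intensity and no covariates (statmod 1.5.0 served the robust variances). P-values were adjusted after Benjamini-Hochberg over 45037 probe sets. They set a difference against the spread between these mice, with each variance drawn toward the trend over all probe sets. Of the probe sets, 34945 carry 1 symbol, 932 several and 9160 none, and 64 control features were left out. A gene is read from its brightest probe set with 1 symbol, and it rose or fell at an adjusted p under 0.05. The script was tested on simulated data.

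The genes described and all lists were chosen with earlier results of these data known. Named are all members, in each list up to 4 passing genes with the largest change (where none passes, the 2 brightest), the 5 genes most like Sdc1, Pou2af1 and the genes of the gate, with additions stated. Xylt1, Hs3st5, Tnfsf13, Klrb1c, Ly6g, Lck, Trac and Hbb-bt are not analysed here, and some further items are not reported. Alternatives were the methods' t-test, no trend, robust variances, leaving out dim probe sets, quantile normalization, centring, an offset of 16, the probe set of largest spread, the replicate number as a block and leaving out each array. Promoters came from a RefSeq table, and no build is stated with the arrays.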

Additional observations from a re-analysis of the deposited data

How the results depend on the processing

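All 9 genes kept the direction of their difference under every alternative run. The Sdc1 difference was -6.04 by the probe set of largest spread, and that of Sdc2 was -0.58 with an offset of 16. By the probe set of largest spread, 7 pathway genes were higher and 12 lower. By the methods' t-test at its own thresholds, 875 probe sets passed, 576 of them lower, and after Benjamini-Hochberg adjustment 114 were higher and 153 lower, with 0 probe sets of the 9 genes higher and 3 lower, and 0 pathway genes higher and 3 lower. These were Hpse, Cd44 and Met. Without the intensity trend, 2 pathway genes were higher. When each array was left out in turn, 517 to 926 probe sets were higher and 875 to 1315 lower, against 1007 and 1465 with all arrays. The lowest counts came without WT replicate 3 (517 higher, 913 lower) and BCS replicate 2 (526 and 875), and without BCS replicate 3 there were 600 higher. Of the probe sets of the 9 genes, 6 to 7 were called lower and 1 higher in these fits, and of the pathway genes 3 to 5 were higher (3 without WT replicate 1, WT replicate 3 or BCS replicate 2) and 8 to 12 lower. Extl2, which did not pass, had a difference of 0.14 by the probe set of largest spread and of -0.27 to 0.048 with an array left out (0.048 without WT replicate 3, 0.0037 without BCS replicate 2). Uxs1, which did not pass either, ranged from -0.15 (without BCS replicate 2) to 0.24, with -0.0055 without BCS replicate 1. The cause was not tested.

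The replicate numbers showed no clear pairing of the mice, though 3 arrays per genotype are too few to exclude one. Same-numbered arrays deviated together with r of -0.000213, 0.0675 and 0.0585, and not every array correlated best with its own number. With the replicate number as a block, 741 probe sets were higher and 1179 lower, 7 of the probe sets of the 9 genes were lower and 1 higher, and 7 pathway genes were higher and 10 lower. Of the named pathway genes, Ids lost its call (limma adjusted p = 0.0502).

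Dim probe sets limit what can be said of Sdc2 and of 35 of the 107 pathway genes, which lay below the array median on all 6 arrays. With 3 mice per genotype, genes that did not pass cannot be called equal.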

Other observations

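The genes next to each of the 9 on the chromosome, taken by their order in RefSeq and not by their values, were read from the same limma fit. On the side of Sdc1, Laptm4a, which encodes a lysosomal membrane protein, fell by 0.47 (standard error, SE, 0.11, limma adjusted p = 0.0494), and Pum2, an RNA-binding protein gene, had a log2 difference of 0.26 (0.07, limma adjusted p = 0.0534). Beside Hs3st1, Clnk, which encodes an adaptor of immune receptor signaling, fell from a mean of 345 to 82.6, by 2.07 on the log2 scale (SE 0.35, limma adjusted p = 0.00942), while Rab28 on the other side had a difference of 0.15 (limma adjusted p = 0.535). Beside Sdc3, Laptm5, a lysosomal protein gene of hematopoietic cells, fell by 0.43 (SE 0.06, limma adjusted p = 0.0044). Beside Sdc2, Sema5a rose by 0.65 (SE 0.13, limma adjusted p = 0.021) at intensities near background, 12.3 in WT and 19.9 in BCS EPLMs. The measured neighbors of Sdc4, Ext1, Ext2, Ndst2 and Hs6st1 were not called, among them Med30 beside Ext1 with a log2 difference of 0.17 (limma adjusted p = 0.468).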
